A study of Mus musculus with 2 samples.

Results

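Genes of integrins, selectins and the adhesion molecules that work with them were followed on 2 Affymetrix arrays of macrophages sorted from mouse hearts after ischemia–reperfusion (IR), in which a coronary artery is closed for a time and then reopened. The genes were chosen by name and not by value. They were all genes whose platform symbol names an integrin α or β subunit, an intercellular adhesion molecule (ICAM) or a selectin, together with Selplg, Vcam1, Pecam1, F11r, Jam2, Jam3, Cd44, Fermt3 and Tln1. This gave 39 of the 19505 genes on the arrays, each with a single probe set. Itga1 and Itga10 were not analysed here.

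One array held MHCII+ macrophages, a population that the study places among resident cells carrying the receptor MerTK, and the other held MerTK- macrophages. Both came from wild-type male C57BL/6 mice of 10 weeks after IR, and both were taken from heart cells that carried CD45 and CD11b. For each sample the study pooled cells of several hearts. Hearts without IR were not analysed here, the sources used here do not give the time from IR to sorting, and the methods do not say that MHCII+ cells were also gated on MerTK. With 1 array for each population there was no spread between replicates, so each difference stands without an error or a test, and the number of arrays limits its precision.

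Integrins are receptors made of an α and a β subunit that bind matrix proteins or molecules on other cells. The β2 integrins, found on leukocytes, bind ICAMs, and integrins with the α4 subunit bind VCAM-1 and fibronectin. Selectins start the contact, since they let leukocytes roll along the vessel wall by binding sugars on proteins such as PSGL-1, and integrins then arrest the cell. Inside the cell, talin and kindlin bind the β subunit tail and switch the integrin to its binding state. In the heart after IR this sequence brings neutrophils and monocytes from the blood into the injured muscle, whereas resident macrophages use integrins to hold on to matrix and to take up dying cells.

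The labels were first set against marker genes. Mertk had log2 values of 8.77 (MHCII+) and 5.97 (MerTK-), and H2-Aa, an MHC class II chain, 16.71 and 8.39. Ccr2, which encodes a chemokine receptor, did not follow the labels, since the study defines resident macrophages by MerTK without CCR2. Its values were 16.15 and 15.18, 1.95-fold higher in MHCII+ macrophages. Adgre1, which encodes the macrophage marker F4/80, was present in both, at 12.22 and 11.43. Each array was given a floor, below which a value was not taken as signal. It was the 95th percentile of the 1452 probe sets for receptors of smell, pheromones and taste, and it came to 4.23 for MHCII+ and 4.67 for MerTK- on the log2 scale. A gene counted as above the floor if the larger of its values passed the floor of its own array. Where the lower value lay at or under its own floor, the fold is a lower bound and is given as "at least". All differences are log2 values in MHCII+ minus those in MerTK- macrophages.

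The adhesion genes were split between the populations. Of the 39 genes, 30 were above the floor, 26 of them on both arrays, 2 (Itga9 and Vcam1) on the MHCII+ array only and 2 (Itga2 and Itgae) on the MerTK- array only. As deposited, Itgax, Itga6, Vcam1, Itgb5 and Itga9 were higher in MHCII+ macrophages by 2-fold or more, and Selp, Itgal, Itga2, Itgb6 and Itgae were so in MerTK- macrophages. The 5 of 30 in each direction stood beside a background, over all 10521 genes above the floor, of 13.4% this far up in MHCII+ macrophages and 6.89% in MerTK- macrophages. When each value under the floor was raised to the floor, the 5 genes higher in MHCII+ macrophages were still at least 2-fold apart, while Itga2 and Itgae were not, which left 5 and 3 adhesion genes beside 11.8% and 6.00% of all genes.

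The median difference of the 30 adhesion genes was -0.05, against 0.15 over all genes above the floor, and it was -0.12 over all 39 genes and -0.03 over all 19505. The middle of the adhesion genes, from the first to the third quartile, ran from -0.67 to 0.66, and that of all genes from -0.34 to 0.64. Of the 18 integrin genes above the floor 11 were higher in MHCII+ macrophages, with a median of 0.27, a share near the 58.4% of all genes above the floor. Of the 12 other genes 4 were, with a median of -0.32. The sign of the first median turns when the arrays are centred on housekeeping genes (0.49), and that of the second on centring by hybridization controls (-0.93).

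**Figure D1:**
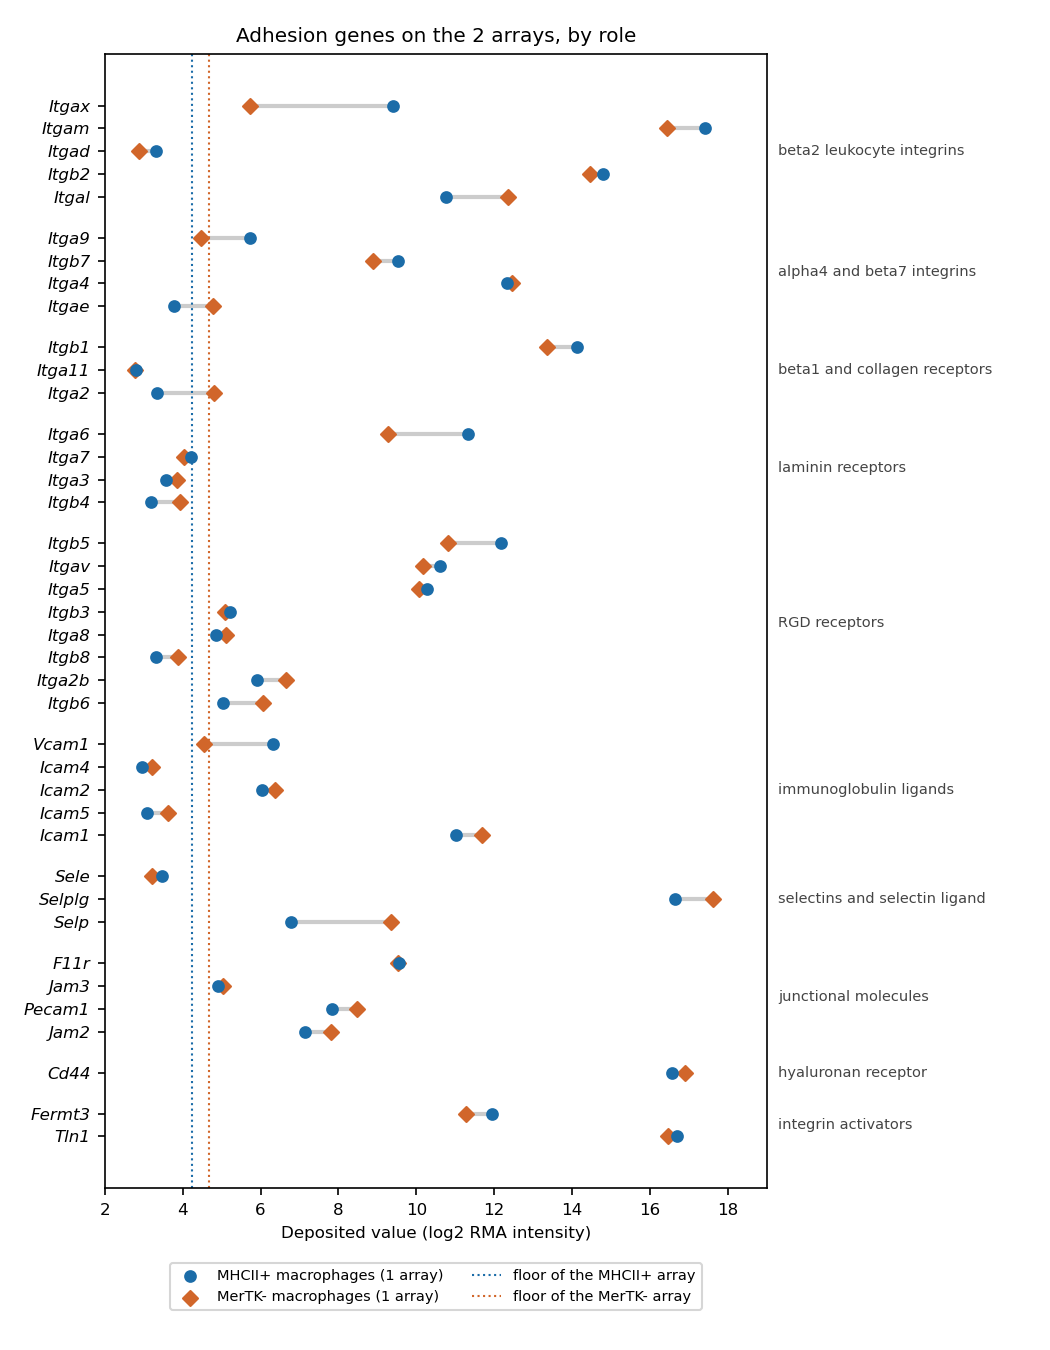
Deposited log2 intensities (horizontal axis) of the 39 adhesion genes in MHCII+ macrophages (circles) and MerTK- macrophages (diamonds), grouped by role, with 1 array per population and a dotted line at the floor of each array. The widest gaps are those of Itgax, from 5.72 to 9.40, and Selp, from 6.78 to 9.34, which point in opposite directions.

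Of the β2 integrins, the leukocyte-specific family, the α subunits went in different directions while their shared β subunit stayed close. Itgax, which encodes CD11c, an α subunit of dendritic cells and some tissue macrophages, had log2 values of 9.40 (MHCII+) and 5.72 (MerTK-), a 12.8-fold difference. Only 26 genes above the floor, Itgax included, had a difference as large in this direction. Itgal, which encodes CD11a, the α subunit of LFA-1 on lymphocytes, monocytes and neutrophils, had values of 10.75 and 12.35 and was 3.02-fold higher in MerTK- macrophages.

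Itgam encodes CD11b, the molecule on which both populations were gated. It had values of 17.42 and 16.45, 1.97-fold higher in MHCII+ macrophages and thus just under the 2-fold threshold. Itgb2, the β2 chain that pairs with all of these α subunits, had values of 14.81 and 14.47, a 1.26-fold difference. Itgad, a further α partner of β2, was at 3.30 and 2.89, under the floor on both arrays. A difference between the differences of 2 genes does not depend on a constant shift of one array. The differences of Itgax and Itgal lay 5.28 apart on the log2 scale, those of Itgax and Itgam 2.70 and those of Itgam and Itgal 2.57. Itgam, like Selplg, Cd44 and Tln1, had values above 16, the top of a 16-bit scan, so that the size of its difference is less certain.

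Itgam, Itgax and Itgad follow each other on chromosome 7, with no other protein-coding gene between them in the NCBI gene table of GRCm38.p6. Their differences were 0.98, 3.68 and 0.41, the last of them under the floor. The promoter windows of Itgam and Itgax are shown because these neighbouring genes, which code for partners of the same β chain, differed by unequal amounts between the arrays. Each runs from 250 bases before to 50 after the start of the gene, as given by RefSeq for GRCm38.p6. Capitals mark matches, on either strand, to any of 4 motifs. The motif GAGGAA is the core bound by PU.1, an ETS factor of myeloid cells. The AP-1 motif was searched as TGAGTCA. The CRE site, which ATF proteins can bind, was searched as TGACGTCA. The motif of GATA factors was searched as AGATAA.
Itgam, chr7:128062390-128062689, plus strand: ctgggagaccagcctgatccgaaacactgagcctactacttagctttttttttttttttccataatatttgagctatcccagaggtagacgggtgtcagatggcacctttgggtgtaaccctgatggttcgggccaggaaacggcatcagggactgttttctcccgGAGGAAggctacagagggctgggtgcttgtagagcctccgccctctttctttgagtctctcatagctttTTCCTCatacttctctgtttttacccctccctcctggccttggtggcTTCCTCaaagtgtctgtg
Itgax, chr7:128129300-128129599, plus strand: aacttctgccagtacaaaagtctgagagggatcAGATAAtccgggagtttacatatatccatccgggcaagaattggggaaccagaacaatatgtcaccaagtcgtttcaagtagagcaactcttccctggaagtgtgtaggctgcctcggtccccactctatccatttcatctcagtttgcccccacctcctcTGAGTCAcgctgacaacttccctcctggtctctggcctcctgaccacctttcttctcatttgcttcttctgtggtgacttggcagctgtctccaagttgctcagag
The Itgam window held 3 GAGGAA matches, which begin at -84, -15 and 33, counted in bases from the start of the gene, and the Itgax window held TGAGTCA at -56 and AGATAA at -217 and no GAGGAA. None of these matches overlapped another.

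Promoter windows were found in the same table for 25 of the 39 adhesion genes, 27 windows in all. GAGGAA was in 13 of the 27 (48.1%) and in 28.3% of all 32851 windows of the table, and TGAGTCA in 4 of 27 (14.8%), namely those of F11r, Itga9, Itgax and Sele, and in 5.20% of all. AGATAA was in 3 of 27 (11.1%) against 11.2% of all, and TGACGTCA in none, against 1.79% of all. These are matches of letters only, and binding was not measured.

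The α4 and β7 group, which binds VCAM-1, fibronectin and E-cadherin, differed little in its well-measured members. Itga4, the α4 subunit by which monocytes and lymphocytes hold on to VCAM-1, had values of 12.34 and 12.47, a 1.09-fold difference. Itgb7, which pairs with α4 or αE, had 9.53 and 8.90. Itga9, whose product resembles α4 and binds osteopontin and tenascin, was at 5.73 in MHCII+ and 4.46 in MerTK- macrophages, the latter under the floor, which puts its lead in MHCII+ macrophages at 2.08-fold or more. Itgae, which encodes the αE subunit (CD103) that binds E-cadherin, had values of 3.78 and 4.78. Its difference was the smallest that passed the threshold, and against the floor its lead in MerTK- macrophages was at least 1.47-fold.

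Among the β1 integrins, the receptor for laminin stood out. Itga6, the α6 subunit that binds laminins of the basement membrane, had values of 11.32 and 9.28 and was 4.12-fold higher in MHCII+ macrophages. Itgb1, the β1 chain that serves most matrix receptors, had 14.13 and 13.35, a 1.71-fold difference in the same direction. Itgb4, the other β partner of α6, was under the floor on both arrays at 3.17 and 3.92. Itga6 thus differed by 1.26 more than its partner Itgb1 on the log2 scale, and by 2.17 more than Itga4, which shares that partner.

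Itga5, the α5 subunit of the fibronectin receptor, had values of 10.27 and 10.07, a 1.16-fold difference. Itga2, a collagen receptor subunit of platelets and lymphocytes, was at 3.34 and 4.79, and its lead in MerTK- macrophages was at least 1.48-fold. The laminin receptor subunits Itga3 and Itga7 and the collagen receptor subunit Itga11 lay under the floor on both arrays, with values from 2.78 to 4.21.

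The αv integrins recognize the RGD sequence of vitronectin and fibronectin, and in phagocytes they take part in the uptake of dying cells through bridging proteins. Itgb5, the β5 chain of the vitronectin receptor, had values of 12.17 (MHCII+) and 10.81 (MerTK-), a 2.57-fold difference. Its partner Itgav had 10.62 and 10.16, a 1.37-fold difference in the same direction. Itgb3, the β3 chain of αv and of the platelet fibrinogen receptor, was nearly equal at 5.22 and 5.08.

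The remaining RGD receptor chains were low or leaned towards MerTK- macrophages. Itgb6, a β chain of epithelial cells, had values of 5.03 and 6.06, a 2.04-fold difference, close to the threshold. Itga2b, the α chain of the platelet fibrinogen receptor, was 1.66-fold higher in MerTK- macrophages, at 5.91 and 6.64. Itga8 was at 4.85 and 5.11, and Itgb8, whose product releases active TGF-β with αv, was under the floor on both arrays.

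The ligands that integrins meet on other cells did not move together. Vcam1, the ligand of α4β1, which activated endothelium displays and some tissue macrophages also make, had values of 6.31 and 4.55, the latter under the floor, so that its lead in MHCII+ macrophages was at least 3.11-fold. Icam1, the ligand of LFA-1 and Mac-1, had 11.03 and 11.69 and was 1.59-fold higher in MerTK- macrophages. The endothelial and platelet ligand Icam2 was at 6.05 and 6.36. Icam4 and Icam5, which lie next to Icam1 on chromosome 9, were under the floor on both arrays.

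The selectin genes leaned towards MerTK- macrophages. Selp, which encodes P-selectin, stored in platelets and endothelial cells and shown on their surface after injury, had values of 6.78 (MHCII+) and 9.34 (MerTK-), a 5.92-fold difference. Only 15 genes above the floor, Selp included, had a difference as large in this direction. Selplg, which encodes PSGL-1, the main ligand of P-selectin on leukocytes, had 16.65 and 17.63 and was 1.97-fold higher in MerTK- macrophages, just under the threshold. The endothelial selectin gene Sele, which lies near Selp on chromosome 1, was at 3.46 and 3.22, under the floor on both arrays. The floor matters for Selp in one respect. Its higher value of 9.34 did not reach 9.66, the 95th percentile of the 5222 negative-control probe sets on the MerTK- array. The higher values of Itgb6, Itga2 and Itgae did not reach it either. Those of Vcam1 and Itga9 did not reach the same percentile on the MHCII+ array, 9.03.

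The promoter window of Selp is shown because its gene marks the opposite end of the range from Itgax, and none of the 4 motifs was found in it.
Selp, chr1:164115014-164115313, plus strand: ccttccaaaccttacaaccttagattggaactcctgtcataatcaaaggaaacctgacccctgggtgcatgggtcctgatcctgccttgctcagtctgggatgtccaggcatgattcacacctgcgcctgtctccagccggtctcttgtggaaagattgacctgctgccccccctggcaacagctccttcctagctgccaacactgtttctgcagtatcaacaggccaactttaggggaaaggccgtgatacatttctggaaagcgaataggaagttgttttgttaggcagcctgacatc

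The junctional molecules and CD44 were less than 2-fold apart. Pecam1, which encodes CD31 of endothelial junctions, platelets and leukocytes, had values of 7.84 and 8.48, and Jam2, a junctional molecule of endothelium, 7.13 and 7.80. Both were higher in MerTK- macrophages, by 1.55-fold and 1.59-fold. F11r, which encodes JAM-A, was nearly equal at 9.55 and 9.53, and Jam3 was close to the floor at 4.92 and 5.04. Cd44, the hyaluronan receptor of leukocytes, had 16.58 and 16.92.

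As deposited, both genes whose products switch integrins on were slightly higher in MHCII+ macrophages. Fermt3, which encodes kindlin-3 of blood cells, had values of 11.94 and 11.27, a 1.59-fold difference, and Tln1, which encodes talin, 16.70 and 16.47. Centring on housekeeping genes turned the difference of Tln1 to -0.26, while that of Fermt3 was 0.18.

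**Figure D2:**
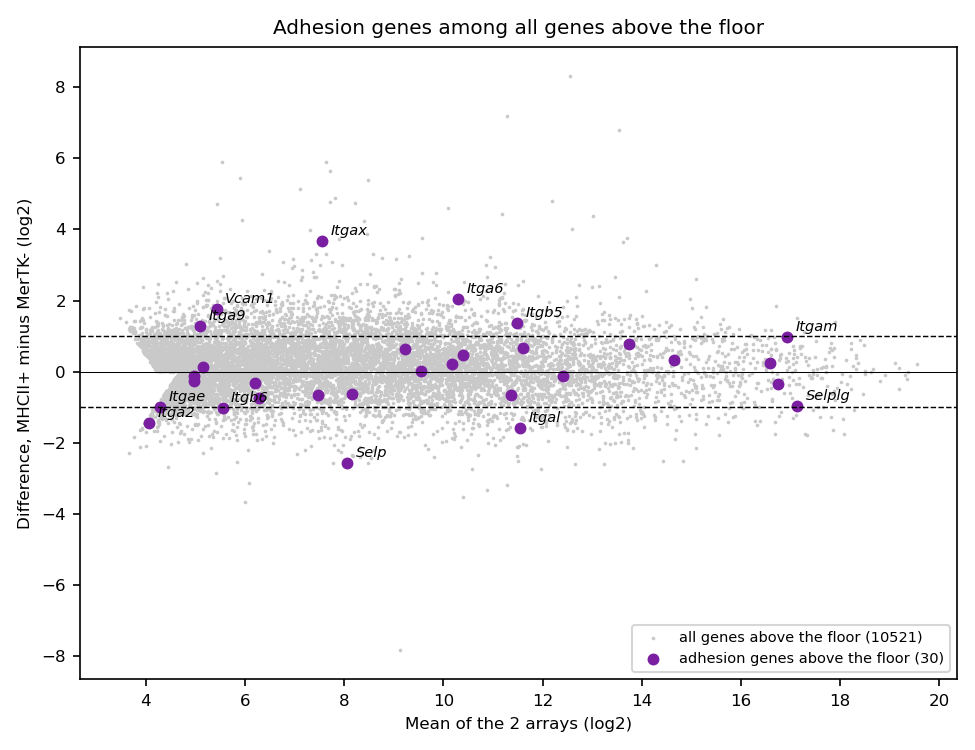
Difference between MHCII+ and MerTK- macrophages (vertical axis, log2) against the mean of both arrays (horizontal axis, log2) for all 10521 genes above the floor (grey) and the 30 adhesion genes among them (purple), with dashed lines at 2-fold. Genes at or near 2-fold are named, and Itgax (3.68) and Selp (-2.57) lie outermost among the adhesion genes.

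Several of these molecules are also made by other cells, whose markers differed between the arrays. The study gated endothelial cells as lacking CD45 and CD11b, so the sorting gate was not set to hold them. Marker differences are as deposited. A list median between -0.93, the shift on hybridization controls, and 0.49, that on housekeeping genes, can change sign with the scaling. The study checked the purity of its sorted cells by flow cytometry and reports it as high. In the RNA of a whole sample, fewer cells of a type and less RNA per cell cannot be told apart. Next to Selp, Itga2b and Itgb3, which platelets carry, the platelet and megakaryocyte list had 6 of 11 markers above the floor. Gp9 (4.57 and 5.04) and Clec1b (6.18 and 6.80) were less than 2-fold apart, and Gp5, Gp6, Tubb1, Treml1 and Alox12 were under the floor on both arrays. The chemokine genes Ppbp (9.69 and 4.54) and Pf4 (13.40 and 8.95), which platelets store, were higher in MHCII+ macrophages, at least 32.2-fold and 21.8-fold. The mean log2 value of the list was 5.47 on the MHCII+ and 4.87 on the MerTK- array, while its median difference was -0.44, with 4 of the 6 markers higher in MerTK- macrophages. The differences of these 6 markers ran from -0.61 for Clec1b to 5.15 for Ppbp, and that of Selp was -2.57. The part of platelets in Selp, Itga2b and Itgb3 was not tested.

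Endothelial markers stand beside Selp, Pecam1, Jam2, Icam2 and Vcam1. As deposited, 10 of 12 markers were above the floor, 9 of them higher in MerTK- macrophages and 5 at least 2-fold. Their median difference was -0.95, and the mean values of the list were 6.70 and 7.50. That median was close to the shift of -0.93 on hybridization controls, so centring by these would leave little of it. Cdh5 (VE-cadherin), at 9.26 and 10.32, and Kdr, at 9.19 and 9.74, lay above the floor on both arrays, and Vwf and Cldn5 under it on both. Selp differed by more than the most different endothelial marker, Fabp4 (-1.89). Pecam1, Jam2 and Icam2 differed by less than the median of that list, and Vcam1 went the other way. The part of endothelial cells in these values was not tested.

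Beside Itgal, Selplg and Icam1, neutrophil markers were higher in MerTK- macrophages. All 18 of 20 markers above the floor leaned that way, 16 by at least 2-fold (13 once the floor was applied), with a median difference of -1.70, and the mean of the list was 10.93 on the MHCII+ and 12.52 on the MerTK- array. Natural killer cell markers, of cells rich in LFA-1, had 8 of 10 genes above the floor beyond 2-fold in the same direction (7 once the floor was applied) and a mean of 4.27 and 6.05, although Klrd1 (at least 4.71-fold) was higher in MHCII+ macrophages. Ncr1 (3.10 and 5.79) and Prf1 (3.15 and 4.86) were above the floor on the MerTK- array only, and Gzma, a granzyme of cytotoxic lymphocytes, was at 5.20 and 13.04. T cell markers had 3 of 10 genes above the floor, and Cd3e, Cd3g and Cd8a were under it on both arrays. The part of neutrophils and natural killer cells in Itgal and Selplg was not tested.

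Dendritic cells can carry the products of Itgax, Itgb7 and Itgae, of which Itgae was higher in MerTK- macrophages (3.78 and 4.78). Dendritic cell markers leaned towards MHCII+ macrophages. All 9 of 13 markers above the floor were higher there, 5 by 2-fold or more (4 once the floor was applied), and the mean of the list was 6.11 and 4.18. Ccl17 was 27.3-fold higher in MHCII+ macrophages (10.10 and 5.33), Cd209a at least 15.4-fold and Ccl22 at least 14.0-fold. Flt3, Zbtb46, Xcr1 and Clec9a, which define dendritic cell lineages, were under the floor on both arrays. Markers of resident cardiac macrophages were above the floor in all 15 cases and higher in MHCII+ macrophages in all of them, 13 by at least 2-fold, with a median difference of 3.65, or 3.12 once the floor was applied. The part of dendritic cells in Itgax was not tested. The median difference was -1.13 for cardiomyocyte, -0.71 for fibroblast, -0.34 for monocyte and -0.16 for smooth muscle markers. Of these, all but the cardiomyocyte median can change sign with the scaling. For B cells, 2 of 7 markers were above the floor.

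**Figure D3:**
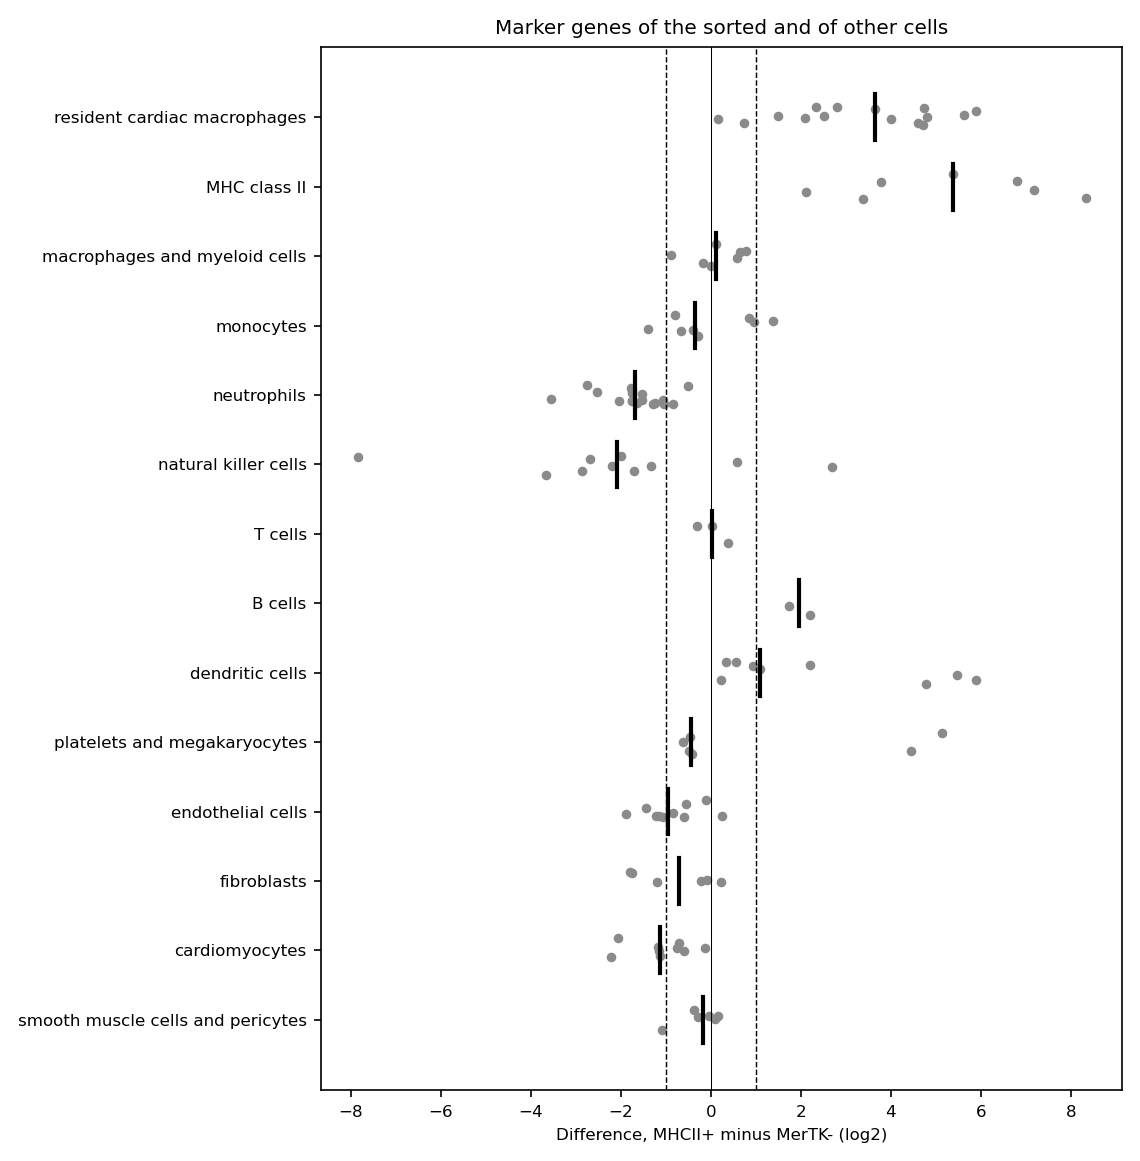
Difference between MHCII+ and MerTK- macrophages (horizontal axis, log2) for each marker above the floor (points) of the sorted cells and of other cells (rows), with the median of each list (bar) and dashed lines at 2-fold. Resident macrophage and MHC class II markers lie to the right, and neutrophil and natural killer cell markers mostly to the left, with medians of -1.70 and -2.09.

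Genes that act with the adhesion molecules were taken from lists of related functions. As for the markers, a list median between -0.93 and 0.49 can change sign with the scaling. As deposited, genes that act on the switching of integrins from inside, helping it or, like Dok1, opposing it, were mostly slightly higher in MerTK- macrophages. Of 21 genes measured 16 were above the floor, 4 of them higher in MHCII+ and 12 in MerTK- macrophages. Of all genes above the floor, 58.4% were higher in MHCII+ macrophages. In this list 2 genes passed 2-fold on each side, and the median difference was -0.19, a value whose sign depends on the scaling. Rasgrp2, the calcium-dependent activator of Rap1 that is needed for integrin activation in platelets and neutrophils, was 2.83-fold higher in MerTK- macrophages (6.86 and 8.36), and Rassf5, which encodes the LFA-1 regulator RAPL, 2.28-fold (8.69 and 9.88). Dok1, an adaptor that competes with talin for the integrin tail, was 3.37-fold higher in MHCII+ macrophages and Rasgrp1 2.16-fold. Rap1a, Rap1b and Apbb1ip, which recruits talin, were close, with differences from -0.22 to -0.09.

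Focal adhesion and signalling genes, which act once an integrin is bound, had 23 of 25 members above the floor and a median of -0.14. The parvin gene Parvb (2.67-fold) and the actin cross-linker gene Actn4 (2.29-fold) were higher in MHCII+ macrophages. Lims2 (3.62-fold), Vasp (2.47-fold), which extends actin filaments, and Actn1 (2.34-fold) were higher in MerTK- macrophages. The α-actinin genes Actn4 and Actn1 therefore went in opposite directions, at 13.32 and 12.13 for Actn4 and 8.70 and 9.92 for Actn1.

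Matrix and soluble ligands of integrins had 8 of 21 genes above the floor, with a median of 0.44 that came down to 0.13 when low values were raised to the floor. Fn1, which encodes fibronectin, had values of 17.93 and 17.08 and Thbs1, which encodes thrombospondin-1, 16.59 and 16.31, both less than 2-fold apart. Nrros, which holds latent TGF-β on myeloid cells, was 2.28-fold higher in MHCII+ macrophages and the only member at least 2-fold apart.

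Genes that build or shed selectin ligands leaned the way of Selplg in part. Of 18 above the floor among 21, 4 passed 2-fold towards MerTK- macrophages and 1 towards MHCII+ macrophages, and their median difference was -0.16. St3gal4 and St3gal6, sialyltransferases that cap selectin ligands, were 3.62-fold (10.07 and 11.92) and 3.17-fold (11.78 and 13.44) higher in MerTK- macrophages, and Spn, which encodes the E-selectin ligand CD43, 2.79-fold. The fourth of them was Emcn (2.22-fold), which is also on the endothelial list. St3gal3, of the same enzyme family, was 2.24-fold higher in MHCII+ macrophages. Fut7, the fucosyltransferase that completes the ligand, was at 5.18 and 5.08, and Gcnt1, which builds the core sugar, at 11.61 and 12.30.

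Tetraspanins and other membrane partners of integrins divided evenly. Of 13 above the floor, Cd81 (2.96-fold) and Cd151 (2.24-fold), a partner of laminin-binding integrins, were higher in MHCII+ macrophages, and Cd9 (2.29-fold) and Cd37 (2.27-fold) in MerTK- macrophages. Their median difference was -0.17. Of the hyaluronan genes 5 of 12 were above the floor, and Lyve1, the hyaluronan receptor by which the study names one of its resident populations, had 7.79 and 3.08, at least 8.67-fold more in MHCII+ macrophages, whereas Cd44 was 1.26-fold higher in MerTK- macrophages.

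Other adhesion genes had 15 of 24 members above the floor, of which 4 passed 2-fold towards MHCII+ macrophages (3 once the floor was applied) and 1 towards MerTK- macrophages. Cdh1, which encodes E-cadherin, the ligand of αEβ7, was 8.42-fold higher in MHCII+ macrophages (9.29 and 6.22), Siglec1, a sialic acid receptor of tissue macrophages, 4.35-fold and Pvr 3.08-fold. Cdh5 went the other way, by 2.08-fold. The median of 0.56 was not kept, since it was 0 once low values were raised to the floor.

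**Figure D4:**
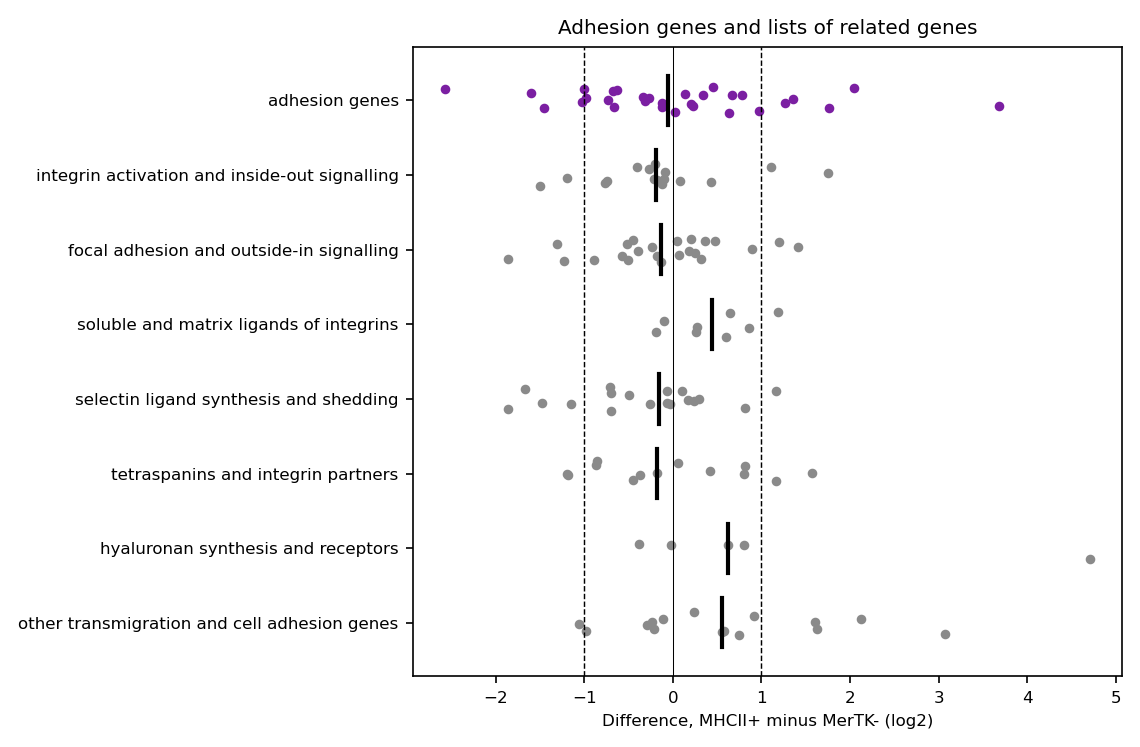
Difference between MHCII+ and MerTK- macrophages (horizontal axis, log2) for the 30 adhesion genes (purple) and for members above the floor of 7 lists of related genes (grey), with the median of each (bar) and dashed lines at 2-fold. Most lists straddle 0, with Itgax (3.68) and Cdh1 (3.07) far to the right. The point of Lyve1 (4.71) rests on a MerTK- value under the floor and is 3.12 against it.

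How the arrays were scaled to each other set the direction of the middle of these genes but not of its ends. The median difference was 0.15 over all genes above the floor, 0.49 over 21 housekeeping genes and -0.93 over 4 hybridization controls, transcripts of bacteria and a phage that are added to each array. Each adhesion gene was compared under 5 scalings, as deposited, centred on each of these sets in turn, and after quantile normalization. Itgax, Itga6 and Vcam1 stayed beyond 2-fold towards MHCII+ macrophages under all 5, with lowest differences of 3.19, 1.55 and 1.27. Selp stayed beyond 2-fold towards MerTK- macrophages, and its difference closest to 0 was -1.63. The other 6 genes at least 2-fold apart as deposited kept their direction under all 5 and came under 2-fold in at least 1. Itgb5 and Itga9 did so on centring by housekeeping genes, at 0.87 and 0.78, and Itgal, Itga2 and Itgb6 on centring by hybridization controls, at -0.66, -0.52 and -0.09. Itgae did so there, at -0.07, and after quantile normalization, at -0.91. Of the 30 genes above the floor, 15 changed sign under at least 1 scaling, among them Itga4, Itga5, Itgav, Itgb2, Icam1, Pecam1 and Cd44.

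**Figure D5:**
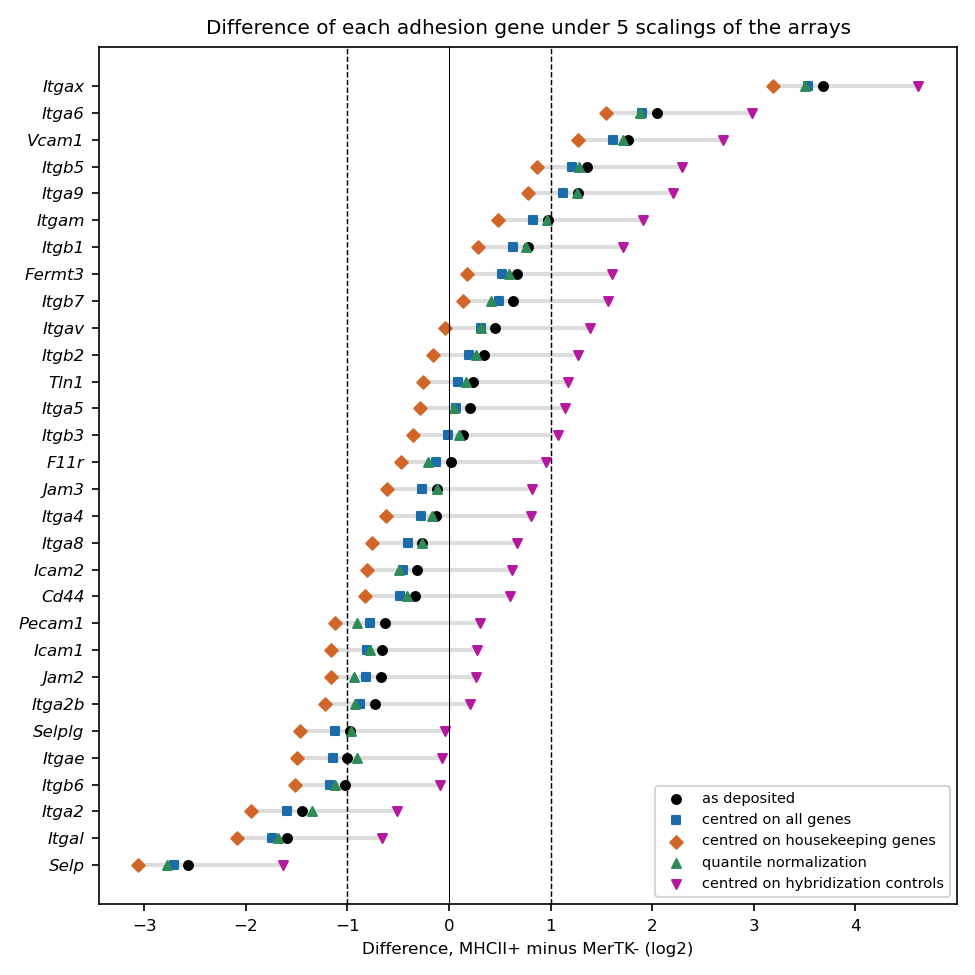
Difference between MHCII+ and MerTK- macrophages (horizontal axis, log2) of the 30 adhesion genes above the floor (rows) under 5 scalings of the arrays (symbols), with a grey line from the lowest to the highest and dashed lines at 2-fold. Itgax, Itga6, Vcam1 and Selp stay beyond 2-fold under all 5, and 15 genes lie on both sides of 0.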

How the data were processed

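Total RNA of 2 sorted populations was measured, 1 sample each, on the mouse Clariom S array per the study's methods, although the series text names an older mouse array. The values deposited by the authors are log2 intensities per probe set. Per the methods the authors used Robust Multichip Analysis with default settings and global scaling, with Affymetrix Expression Console, a tool listed in the submitters' processing notes. The log2 values ran from 1.01 to 19.8 (MHCII+) and 0.89 to 19.4 (MerTK-) and 337 and 331 probe sets lay above 16, the top of a 16-bit scan. The step that raised them, and whether it stretched folds, are not given in the sources used here. No scaling was added for the main values.

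Of 28846 probe sets, 22206 stand for transcripts and 19572 carry 1 gene symbol on the platform. Current symbols came by Entrez ID from the NCBI gene table of GRCm38.p6, and for 55 genes with several probe sets the highest mean was taken. The adhesion genes were matched by platform symbol, and no current symbol differed. Coordinates are those of the gene table, since the deposited values carry none.

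Genes were counted at 2-fold, the threshold of the methods, without a test. The members and lists were chosen with earlier results of these data known. All adhesion genes are named, and from other lists up to 3 genes at least 2-fold apart in each direction; further genes named as defining markers, partners or close to a member were chosen after their values were seen. Counting steps were tested on simulated data, and quantile normalization was checked on the deposited arrays. Python 3.11.15, numpy 2.4.6, pandas 2.3.3 and matplotlib 3.10.9 were used. Alternatives changed the scaling, floor, fold threshold, probe set choice and symbols.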

Additional observations from a re-analysis of the deposited data

How the results depend on the processing

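No paired analysis was possible because each population had 1 array, and for the same reason no replicate could be left out. Counts are of adhesion genes past 2-fold, first towards MHCII+ and then towards MerTK- macrophages, 5 and 5 as reported, and the median difference as reported was -0.05. Centring on housekeeping genes gave 3 and 10 genes and a median of -0.54. Centring on hybridization controls gave 14 and 1 genes and turned the median to 0.89. Centring on the median of all genes gave a median of -0.20 and quantile normalization -0.14. Without a floor the median was -0.12. The 99th percentile of sensory receptors as floor left 3 genes higher in MerTK- macrophages and a median of 0.17, and the negative-control floor, above which 17 adhesion genes lay, left 3 and 1 genes and a median of 0.34; fewer genes entered both. Setting values under the floor to it left 3 genes higher in MerTK- macrophages. A threshold of 1.5-fold gave 9 and 10 genes and one of 3-fold 3 and 2. For all genes, 66.0% of those at least 2-fold apart were higher in MHCII+ macrophages as deposited, 51.0% after centring on the median, 20.1% after housekeeping genes, 98.8% after hybridization controls and 54.5% after quantile normalization. None of the 10 genes at least 2-fold apart changed direction under an alternative that kept it above the floor. The other counts stayed within 1.5 times. Centring on hybridization controls moved Itga9 from 1.27 to 2.20, Itgb5 from 1.36 to 2.29 and Vcam1 from 1.76 to 2.70, and Itgal, Itga2, Itgb6, Itgae and Selp towards 0 by over 1.5 times (to -0.66, -0.52, -0.09, -0.07 and -1.63). Centring on housekeeping genes moved Itga9 and Itgb5 to 0.78 and 0.87. Signal over background limits Itga2, Itga9, Itgae and Vcam1, whose lower values lay under the floor.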
